A study of Mus musculus with 16 samples.

Results

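Interferon-stimulated genes are the genes that a cell switches on when an interferon binds its receptor. The 37 measured here were taken by name, 30 that answer mainly to type I interferon and 7 that answer mainly to interferon gamma, out of 20863 genes with a named probe. Each gene was represented by the probe with the highest mean over the 16 arrays, and all 37 had a probe. Messenger RNA came from whole lungs of C57BL/6 mice aged 9 to 12 weeks and was read on 1-colour Agilent arrays from 0.2 ug of RNA. The 4 groups were bleomycin with LNA-miR-199a-5p (5 arrays), bleomycin with LNA-control (5 arrays), PBS with LNA-miR-199a-5p (3 arrays) and PBS with LNA-control (3 arrays). Bleomycin breaks DNA and, in the airways, causes injury followed by scarring. It was given into the trachea at 1 unit/kg, and PBS was its vehicle. Every animal also received an oligonucleotide with locked nucleic acid (LNA) bases by the same route at 5 mg/kg, given 4 and 2 days before bleomycin or PBS and again 4 days after. LNA-miR-199a-5p is an inhibitor of the microRNA miR-199a-5p, and LNA-control stood in its place in the other animals, so no group is free of an oligonucleotide. Whether the numbered replicates are separate animals is not in the labels, so p-values measure only the spread between these samples, part of which may be technical. The level of mature miR-199a-5p itself was not analysed here.

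Type I interferons bind the receptor made of Ifnar1 and Ifnar2, and the signal ends in a complex holding Stat2 and Irf9 that binds a DNA element called the interferon-stimulated response element (ISRE). Interferon gamma binds Ifngr1 and Ifngr2 and acts on the gamma-activated site (GAS). The products bind or cut viral RNA, tag proteins with Isg15, attack the vacuoles of intracellular microbes or prepare peptides for presentation to T cells, and in lung they are made by epithelium, endothelium and leukocytes alike. The 2 classes overlap, since many ISRE genes also answer to gamma.

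The sequences behind the comparison are the microRNA that the inhibitor is directed against and the promoter elements through which the members are known to be switched on. Mature miR-199a-5p (RefSeq, GRCm38.p6, made from genes on chromosomes 1 and 9) is 23 bases long, and capitals mark its seed, bases 2 to 8.
mmu-miR-199a-5p: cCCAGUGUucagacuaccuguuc
RefSeq promoter windows (GRCm38.p6, 250 bases before to 50 after the start of transcription) were searched on both strands for the ISRE core GAAANNGAAA and for the GAS letters TTCNNNGAA. Windows were at hand for 22 of the 30 type I members and for all 7 gamma-type members. The ISRE core was in 10 of those 22 and in 4 of those 7, against 3.993% of 27025 genes with a window, and the GAS letters were in 7 and in 2, against 9.554%. The lines show 50 bases of 5 members that passed in a comparison and of Stat2, which passed in none but belongs to the ISRE-binding complex, 5′ to 3′ on the strand of the gene, with the ISRE core in capitals (as TTTCNNTTTC where it lies on the other strand). Overlapping cores are capitalised as 1 run, 2 of them in Oas1a and 3 in Isg15.
Oas1a, chr5:120907516-120907565, minus strand: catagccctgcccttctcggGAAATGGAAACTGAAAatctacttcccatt
Oas3, chr5:120777705-120777754, minus strand: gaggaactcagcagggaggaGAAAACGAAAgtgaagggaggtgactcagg
Isg15, chr4:156200867-156200916, minus strand: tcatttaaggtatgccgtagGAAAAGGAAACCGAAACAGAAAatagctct
Stat2, chr10:128270256-128270305, plus strand: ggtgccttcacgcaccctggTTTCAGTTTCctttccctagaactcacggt
Gbp2, chr3:142620584-142620633, plus strand: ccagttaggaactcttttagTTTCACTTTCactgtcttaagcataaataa
Igtp, chr11:58199502-58199551, plus strand: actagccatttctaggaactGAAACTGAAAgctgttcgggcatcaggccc
These are matches of letters and not measured binding. With the inhibitor in bleomycin lungs Oas1a and Isg15 were lower and Gbp2 and Igtp higher, and all of them hold the core.

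Values are log2 signals, and a log2 fold change of 1 means a doubling. Lung epithelium markers stood at a mean of 14.68 to 15.02 on every array. Sftpc was at the top of the scale (18.32) on most arrays, which limits how far that mean can move. Of the 7 markers 3 were higher with the inhibitor in bleomycin lungs, where 13.4% of all genes were. After bleomycin with LNA-control 1 was lower, where 7.9% of all genes were. Markers of other tissues also differed between arrays, and whether their RNA came from outside the lung was not tested. Thymocyte markers averaged 8.52 and 9.22 on arrays 1 and 4 of the bleomycin LNA-control group, where the remaining 14 arrays had 6.46 to 6.81. Fat markers were low on array 3 of the PBS LNA-miR-199a-5p group (8.76) and array 3 of the PBS LNA-control group (8.75), where the other arrays had 10.11 or more. In bleomycin lungs the fat mean was 11.22 to 11.72 with LNA-miR-199a-5p, above 10.11 to 10.97 with LNA-control. Of the 6 fat markers 3 were higher in that comparison, where 13.4% of all genes were. Squamous epithelium markers were low on those low-fat PBS arrays (5.78 and 8.50 in that order), where the others had 9.73 to 12.11. Their mean was also higher in bleomycin lungs with LNA-miR-199a-5p (11.22 to 12.11) than with LNA-control (9.98 to 11.08), although only 1 of 6 passed. Heart markers were higher in bleomycin lungs with LNA-miR-199a-5p (12.89 to 13.83) than in bleomycin lungs with LNA-control (12.26 to 12.88). RNA integrity numbers averaged 9, 8.2, 8.33 and 8.33 in the 4 groups in the order given above.

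With miR-199a-5p left alone, the question was how the type I genes answered to bleomycin. A small set of antiviral genes rose. Oas1a, Oas2 and Mx1 were close to doubled, and Isg15, Ifit1 and the transcription factor gene Irf7 rose by less, while the other 24 type I members did not pass the test. In all, 6 of 30 (20%) were higher and none was lower, where 9.6% of all genes tested were called higher and 7.9% lower. The median of the 30 log2 fold changes was 0.16, against 0.00 over all genes, with 19 positive and 11 negative and no member past a doubling.

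Irf7, the factor that amplifies type I interferon production, had log2 signals of 8.39, 8.30, 8.13, 8.40 and 8.37 in bleomycin lungs with LNA-control, against 7.89, 8.00 and 7.56 in PBS lungs with LNA-control. Every bleomycin array lay above every PBS array, and the rise was 0.50 ± 0.14 (SE, n = 5 and 3; limma adjusted p = 0.0186). Without array 3 of the PBS LNA-control group, the lowest of these, the call ended (adjusted p = 0.142), as it did without the thymocyte-rich arrays, without the low-fat PBS arrays or with the other tissues held constant. Stat2, the partner of Irf9 in the ISRE-binding complex, had 12.16, 11.76, 11.71, 12.09 and 12.01 with bleomycin and 11.83, 11.73 and 11.79 with PBS. Those ranges overlapped, with a difference of 0.17 (95% interval -0.12 to 0.45). Irf9 did not pass either, and array 1 of the bleomycin LNA-control group stood at 11.29 where the other 4 had 12.24 to 12.68.

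Oas1a makes the 2′-5′-linked oligoadenylates that switch on RNA cleavage. Its signals were 12.23, 11.93, 11.83, 12.37 and 12.23 in bleomycin lungs with LNA-control, against 11.33, 11.14 and 11.06 in PBS lungs with LNA-control. The groups lay apart by more than either spread, a rise of 0.94 ± 0.14 (1.92-fold, adjusted p = 0.000238). Oas2, a second enzyme of this family, had 11.45, 10.95, 10.97, 11.87 and 11.26 with bleomycin and 10.50, 10.41 and 10.23 with PBS. It rose by 0.92 ± 0.18 (adjusted p = 0.00174), with the highest values on the thymocyte-rich replicates 1 and 4. Oas3 (0.39 ± 0.14, adjusted p = 0.0666), Oasl1 (0.39, adjusted p = 0.11) and Oasl2 (0.27, adjusted p = 0.151) did not pass.

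Mx1 is named for a GTPase that traps viral ribonucleoproteins. Only its transcript was read here, and whether these mice make a working protein was not tested. Mx1 had 9.54, 8.98, 9.27, 9.61 and 9.48 in bleomycin lungs with LNA-control and 8.50, 8.40 and 8.33 in PBS lungs with LNA-control. It rose by 0.97 ± 0.19 (adjusted p = 0.00172) with no overlap, and Mx2 changed by 0.24 (adjusted p = 0.0837). The calls of Oas1a, Oas2 and Mx1 held when any 1 of the 16 arrays was left out and in all 12 other settings tried.

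Isg15, the ubiquitin-like tag of the interferon response, had 13.11, 12.87, 12.72, 13.37 and 12.95 in bleomycin lungs with LNA-control and 12.54, 12.46 and 12.04 in PBS lungs with LNA-control. Again no arrays overlapped, and the rise was 0.66 ± 0.19 (adjusted p = 0.0241). Ifit1, which binds viral RNA with a foreign cap, rose by 0.65 ± 0.19 (adjusted p = 0.0257), where Ifit2 and Ifit3 did not pass. Both calls rested on few arrays. Each ended without array 1 or array 4 of the bleomycin LNA-control group, without both of these thymocyte-rich arrays, without array 3 of the PBS LNA-control group, without both low-fat PBS arrays, and with fat, heart and squamous markers held constant. The call of Ifit1 also ended without array 2 of the PBS LNA-control group. The type I count was 3 without array 3 of the PBS LNA-control group, 3 without the thymocyte-rich arrays, 3 without the low-fat PBS arrays and 3 with the other tissues held constant.

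**Figure D1:**
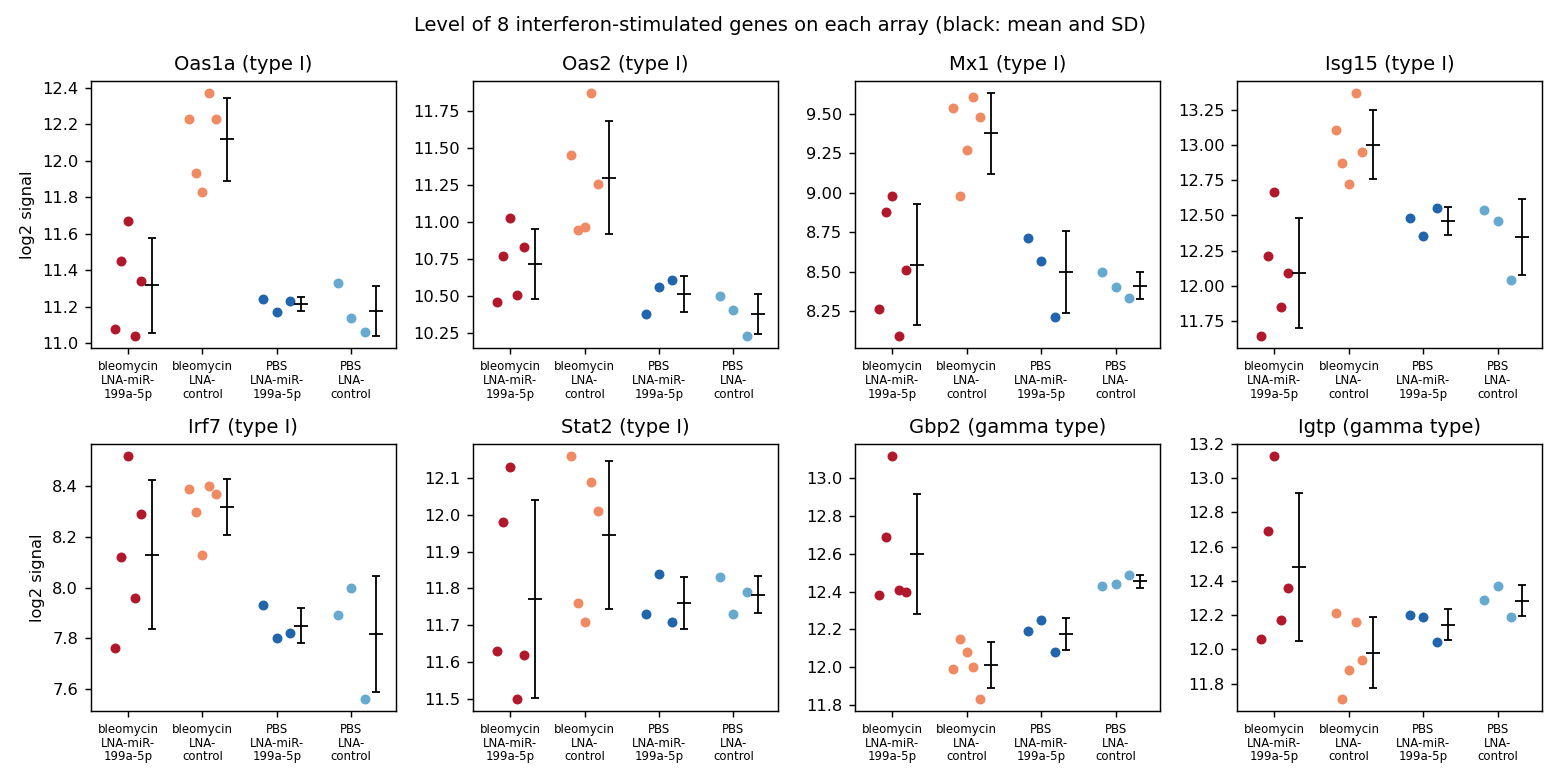
Log2 signal of 6 type I and 2 gamma-type members, 1 point per array, with the groups on the horizontal axis and black bars for mean and SD (n = 5 in bleomycin groups, 3 in PBS groups; vertical axes do not start at 0). Oas1a runs from 11.83 to 12.37 in bleomycin lungs with LNA-control, above all 11 other arrays, and Gbp2 is highest in bleomycin lungs with LNA-miR-199a-5p.

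Macrophage and monocyte markers moved with these genes. Of 8 measured markers 6 were higher in bleomycin lungs with LNA-control than in PBS lungs with LNA-control, and their mean level was 11.10 to 11.35, against 10.55 to 10.62. Cd68, a lysosomal protein of macrophages, rose by 1.35. Natural killer cell markers went the other way, with 6 of 7 lower (8.61 to 8.93, against 9.17 to 9.40), as did neutrophil markers, with 6 of 7 lower (10.76 to 10.88, against 11.68 to 11.69), and endothelial markers, with 4 of 7 lower (12.36 to 12.65, against 12.95 to 12.97). Plasmacytoid dendritic cells are the main makers of type I interferon. Of their 9 markers 1 was higher and 2 were lower, where 9.6% and 7.9% of all genes were, and the defining Siglech did not pass (-0.17 ± 0.22). The Siglech probe was bright (mean 15.82). Ccr9, also listed as a thymocyte marker, was highest on the thymocyte-rich arrays (8.74 and 9.50). The list may therefore not read these cells alone. More cells of a type and more RNA per cell cannot be told apart in whole lung, and the part these cells play in the result was not tested.

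With LNA-miR-199a-5p on board, bleomycin was followed by a call in 1 of the 30 type I members. Oas3 was higher (1 of 30, 3.33%), where 7.31% of all genes were called higher and 6.04% lower, and the median of the members was 0.02. Its signals were 6.34, 6.60, 6.94, 6.54 and 7.12 in bleomycin lungs, against 6.25, 6.21 and 6.09 in PBS lungs, a rise of 0.53 ± 0.14 (adjusted p = 0.0248). The arrays did not overlap, but the probe is dim beside a median of 8.47 over all genes, and the call ended without any 1 of the 3 PBS arrays with LNA-miR-199a-5p. It also ended with the other tissues held constant (0.34, adjusted p = 0.265), with the RNA integrity number as a covariate (0.46, adjusted p = 0.0743) and without the low-fat PBS arrays (0.48, adjusted p = 0.0888). Oas1a changed by 0.10 (95% interval -0.20 to 0.40), Mx1 by 0.05 (-0.35 to 0.45) and Isg15 by -0.37 (-0.77 to 0.04), and none of them passed. A second, dimmer Oas1a probe did pass here, at 0.44.

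The inhibitor was then compared with LNA-control within bleomycin lungs. Of the type I genes, 9 of 30 members (30%) were lower and 1 was higher (3.33%), where 11.4% of all genes were called lower and 13.4% higher. The antiviral enzymes Oas1a and Oas2 and the related Oasl1, the RNA-binding Ifit1, both Mx genes, Isg15 and its protease Usp18, and the Z-nucleic acid sensor Zbp1 were lower, and the exonuclease gene Isg20 was higher. The median of the 30 was -0.16, against 0.02 over all genes, and 24 values were negative. This comparison and the first use the same 5 arrays of bleomycin with LNA-control, so their values are not independent of each other.

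Oas1a stood at 11.08, 11.45, 11.67, 11.04 and 11.34 in bleomycin lungs with LNA-miR-199a-5p, all below the 5 arrays of bleomycin with LNA-control given above, and fell by 0.80 on the log2 scale (SE 0.12, n = 5 and 5; adjusted p = 0.000276). Its second probe was also lower (-0.53). Oas2 had 10.46, 10.77, 11.03, 10.51 and 10.83 with LNA-miR-199a-5p, of which the highest passed the lowest values of the LNA-control group. Its change was -0.58 ± 0.15 (adjusted p = 0.0124), and the call ended without the thymocyte-rich arrays (-0.34, adjusted p = 0.107). Oasl1 was lower by -0.65 ± 0.14, and Oas3 (0.12) and Oasl2 (-0.15) did not pass.

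Isg15 had 11.64, 12.21, 12.67, 11.85 and 12.09 in bleomycin lungs with LNA-miR-199a-5p. The highest of these lay just below the lowest LNA-control array (12.72), and the change of -0.91 (SE 0.165, adjusted p = 0.00102) was the largest among the 30 type I members in this comparison. Usp18, which strips Isg15 from proteins and damps the type I receptor, had 9.81, 9.94, 10.07, 10.06 and 10.02 with LNA-miR-199a-5p, against 10.19, 10.38, 10.47, 10.59 and 10.33 with LNA-control. The groups did not overlap, at -0.41 ± 0.08 (adjusted p = 0.00222). Herc6, the mouse ligase for Isg15, did not pass (0.07).

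Mx1 had 8.26, 8.88, 8.98, 8.09 and 8.51 in bleomycin lungs with LNA-miR-199a-5p, and its highest value met the lowest of the LNA-control group at 8.98. Its change was -0.83 ± 0.16 (adjusted p = 0.00177), with Mx2 at -0.37 ± 0.08 and Ifit1 at -0.72 ± 0.16. Among the sensors, Zbp1 was lower (-0.76 ± 0.21, adjusted p = 0.0135) on 1 of its 2 probes. The RNA sensors Ifih1 (Mda5) and Dhx58 (Lgp2) and the RNA-activated kinase gene Eif2ak2 did not pass, with -0.35 (adjusted p = 0.101) for Eif2ak2 and -0.23 (adjusted p = 0.103) for Dhx58. Irf7 had 7.76, 8.12, 8.52, 7.96 and 8.29 with LNA-miR-199a-5p and Stat2 had 11.63, 11.98, 12.13, 11.50 and 11.62. Both overlapped the LNA-control group and neither passed, at -0.18 each (adjusted p = 0.287 each).

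The effectors that did not pass were the virus-restricting Rsad2 (viperin), Bst2 (tetherin) and Samhd1, and Ifi44, Cmpk2, Xaf1, Rtp4, Ifi35 and Parp14. In bleomycin lungs with LNA-miR-199a-5p, Rsad2 was 9.16 to 9.46 on 4 arrays and 8.32 on replicate 4. Isg20 was higher by 0.26 ± 0.07 (adjusted p = 0.0141) on 1 of its 2 probes. All 10 calls held when any 1 array was left out, and those of Oas2, Ifit1 and Zbp1 ended without both thymocyte-rich arrays. RNA integrity was higher with LNA-miR-199a-5p (mean 9, against 8.2 with LNA-control), and with it as a covariate the calls of Isg20 (0.20, adjusted p = 0.0864) and Zbp1 (-0.72, adjusted p = 0.0556) ended.

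Other cell types and tissues moved in this comparison too. Macrophage and monocyte markers were lower for 6 of 8 (mean level 10.62 to 10.79 with LNA-miR-199a-5p, against 11.10 to 11.35 with LNA-control), and Cd68 was lower by -1.34. Of the 9 plasmacytoid dendritic cell markers, which may not read these cells alone, 4 were higher and 1 was lower. Over all genes 13.4% were higher and 11.4% lower. Heart markers were higher for 6 of 6 and fat markers for 3 of 6. With the first principal components of the fat, heart and squamous markers as covariates, 0 of 30 type I members passed, and 285 of all genes were called in place of 5188. Under that setting Oas1a was -0.70 (adjusted p = 0.055), Isg15 -0.79 (0.146), Mx1 -0.75 (0.227) and Ifit1 -0.06 (0.939). The mean levels of the fat, heart and squamous lists each lay apart between the bleomycin groups. The markers and the oligonucleotide are therefore hard to tell apart in this fit. Whether the fall of these genes lies in the cells, the share of other tissue or the transcripts per cell was not tested.

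**Figure D2:**
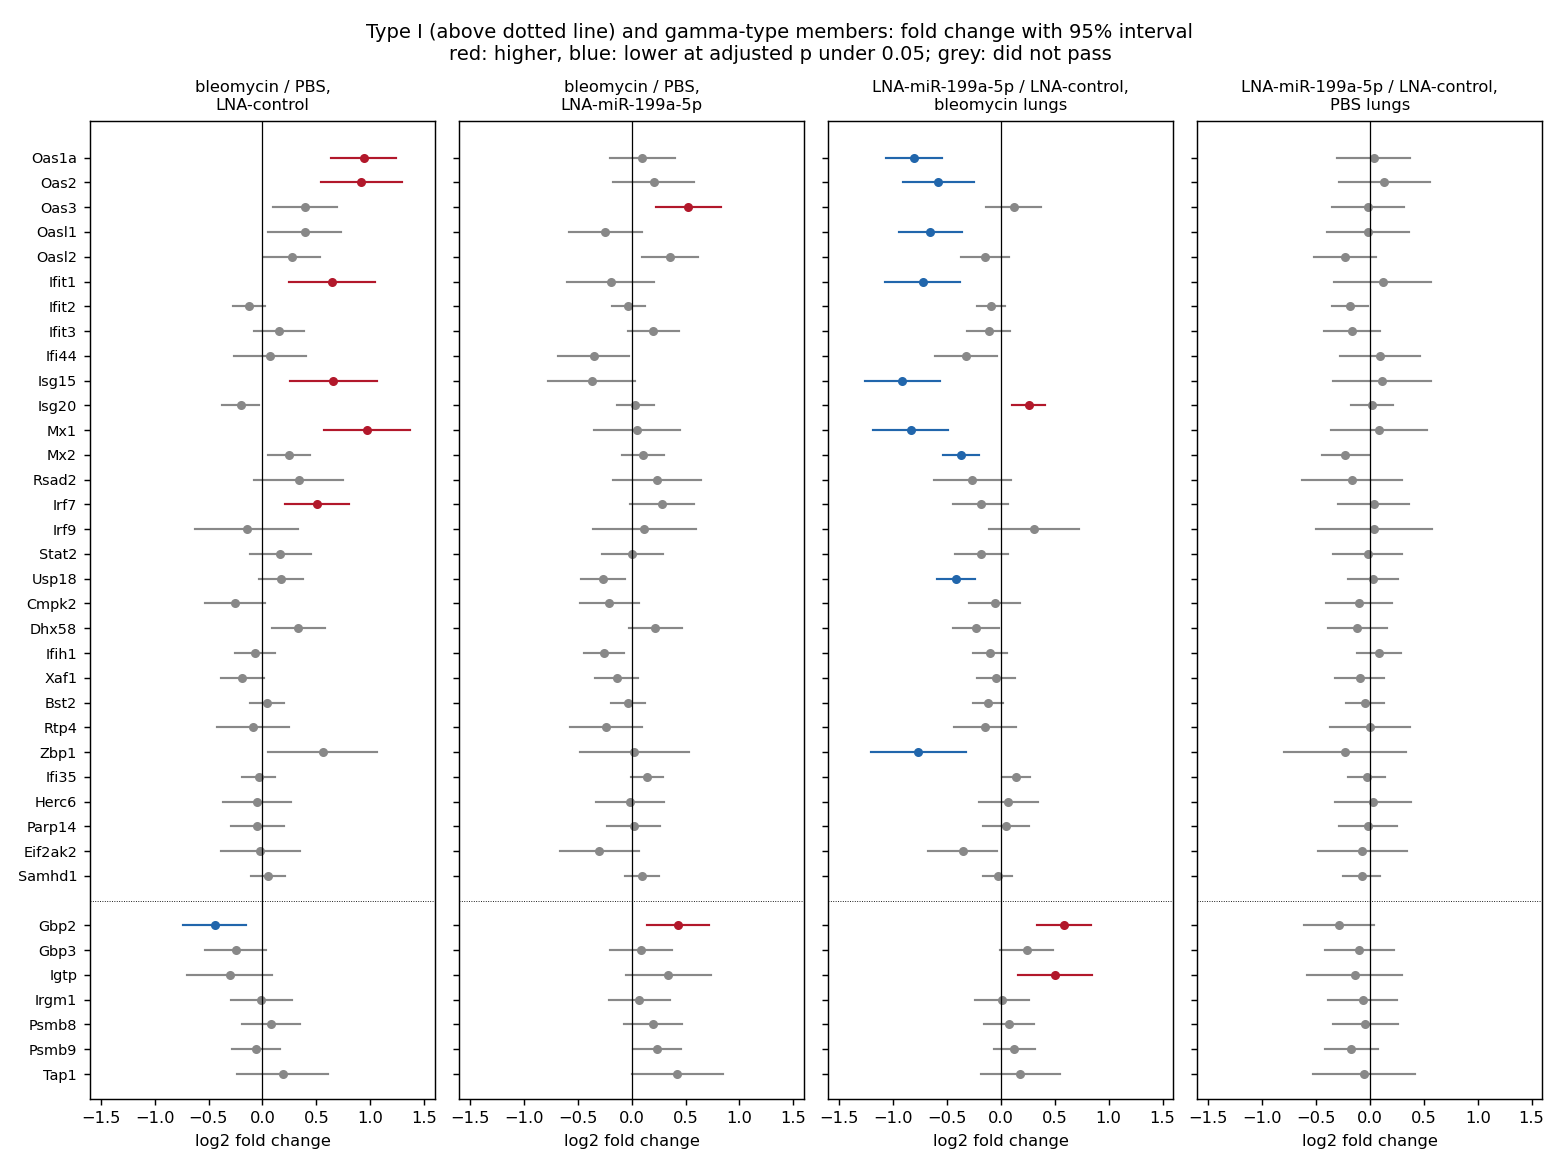
Log2 fold change of each of the 37 members with its 95% interval in 4 comparisons, from 1 limma model of 16 arrays, with type I members above the dotted line and gamma-type members under it. Red and blue mark adjusted p under 0.05; 6 type I members are higher with bleomycin and LNA-control, 9 are lower with the inhibitor in bleomycin lungs, and none passes in PBS lungs.

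The difference between the bleomycin effects under the 2 oligonucleotides was tested as an interaction. It passed for 3 of 30 type I members (10%), all lower, where 3.94% of all genes were lower and 3.07% higher, and the median of the 30 was -0.13. The bleomycin change of Oas1a was 0.10 with LNA-miR-199a-5p and 0.94 with LNA-control, a difference of -0.84 ± 0.20 (adjusted p = 0.0217). On the second, dimmer Oas1a probe the difference was -0.52 and did not pass. Isg15 had -0.37 and 0.66 in the same order, a difference of -1.02 ± 0.27 (adjusted p = 0.032). Mx1 had 0.05 and 0.97, a difference of -0.92 ± 0.27 (adjusted p = 0.0475). Ifit1 (-0.84, adjusted p = 0.07), Usp18 (-0.44, adjusted p = 0.0616) and Oas2 (-0.71, adjusted p = 0.1) did not pass. The PBS groups hold 3 arrays each and these calls were not firm. The call of Oas1a ended without array 1 of the PBS LNA-miR-199a-5p group or without array 2 or 3 of the PBS LNA-control group. Those of Isg15 and Mx1 held for 7 and 5 of the 16 arrays left out. None of the 3 held without the thymocyte-rich arrays, without the low-fat PBS arrays or with the other tissues held constant. All 3 also ended with the replicate number as a block.

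**Figure D3:**
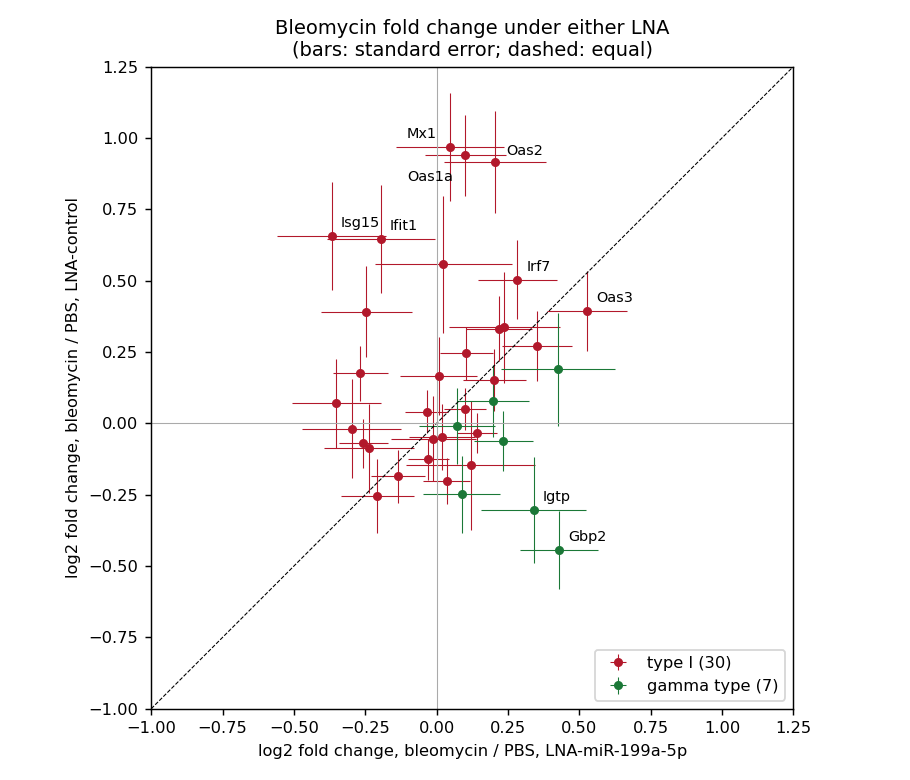
Log2 fold change of each member for bleomycin over PBS with LNA-miR-199a-5p (horizontal) and with LNA-control (vertical), bars for the standard error, dashed line where both are equal; the axes share no arrays. Oas1a, Oas2, Mx1, Isg15 and Ifit1 lie above the line (Oas1a 0.10 across and 0.94 up), and Gbp2 lies below it at 0.43 and -0.44.

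In PBS lungs the inhibitor was followed by no call among the members. By limma 0 of 30 type I and 0 of 7 gamma-type members passed, where 0.0336% of all genes were higher and 0.0144% lower. At an unadjusted p under 0.05 there were 2, Ifit2 (-0.18) and Mx2 (-0.23), both lower and with adjusted p of 0.624 and 0.665. Oas1a had 11.24, 11.17 and 11.23 in PBS lungs with LNA-miR-199a-5p, a change of 0.03 whose 95% interval of -0.30 to 0.37 does not reach the size seen in bleomycin lungs. Isg15 had 12.48, 12.35 and 12.55 (0.11, interval -0.34 to 0.56) and Mx1 had 8.71, 8.57 and 8.21 (0.09, interval -0.36 to 0.53). The other type I members given by array were at 10.38, 10.56 and 10.61 for Oas2, 7.93, 7.80 and 7.82 for Irf7, 10.21, 10.10 and 10.42 for Usp18 and 11.73, 11.84 and 11.71 for Stat2.

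The gamma-type members gave a different picture, carried by Gbp2. This guanylate-binding protein coats the vacuoles of intracellular microbes. With LNA-control it was lower after bleomycin, with LNA-miR-199a-5p it was higher, and in bleomycin lungs it was higher with the inhibitor. Igtp, an immunity-related GTPase (Irgm3), was higher with the inhibitor in bleomycin lungs, and the genes of antigen processing passed in no comparison.

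Gbp2 had 12.38, 12.69, 13.12, 12.41 and 12.40 in bleomycin lungs with LNA-miR-199a-5p and 11.99, 12.15, 12.08, 12.00 and 11.83 in bleomycin lungs with LNA-control. It had 12.19, 12.25 and 12.08 in PBS lungs with LNA-miR-199a-5p and 12.43, 12.44 and 12.49 in PBS lungs with LNA-control. The bleomycin arrays with LNA-control were the lowest group, and they overlapped only those of PBS with LNA-miR-199a-5p. In bleomycin lungs the inhibitor change was 0.59 ± 0.12 (adjusted p = 0.00211), which held without any 1 array but not with the other tissues held constant (0.93, adjusted p = 0.0837). The bleomycin change was -0.44 ± 0.14 (adjusted p = 0.033) with LNA-control and 0.43 ± 0.14 (adjusted p = 0.0489) with LNA-miR-199a-5p. The test of their difference gave 0.87 ± 0.19 (adjusted p = 0.0142) and also held without any 1 array. The first of those bleomycin calls ended without array 1, 4 or 5 of the bleomycin LNA-control group or any 1 PBS array with LNA-control, and the other ended in 12 of 16 such fits. Both ended without the thymocyte-rich arrays and without the low-fat PBS arrays, and the one with LNA-miR-199a-5p also with the other tissues held constant. Without the thymocyte-rich arrays the difference was 0.86 (adjusted p = 0.0535), and without replicate 3 of both PBS groups it was 0.81 (adjusted p = 0.0827), a setting chosen after seeing the data.

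Igtp had 12.06, 12.69, 13.13, 12.17 and 12.36 in bleomycin lungs with LNA-miR-199a-5p and 12.21, 11.71, 11.88, 12.16 and 11.94 in bleomycin lungs with LNA-control. The groups overlapped, with a change of 0.50 ± 0.16 (adjusted p = 0.0314) that passed on 2 of its 10 probes. That call ended without array 2 or 3 of the bleomycin LNA-miR-199a-5p group, which hold its 2 highest values, and without array 2, 3 or 5 of the bleomycin LNA-control group, and it ended with the other tissues held constant (0.81, adjusted p = 0.199). In PBS lungs Igtp had 12.20, 12.19 and 12.04 with LNA-miR-199a-5p and 12.29, 12.37 and 12.19 with LNA-control. Gbp3 and Irgm1, of the same GTPase families, did not pass in any comparison (0.24, adjusted p = 0.147, for Gbp3 with the inhibitor in bleomycin lungs).

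Psmb8 encodes an immunoproteasome subunit. It had 12.16, 12.55, 12.82, 12.36 and 12.77 in bleomycin lungs with LNA-miR-199a-5p and 12.61, 12.51, 12.42, 12.38 and 12.34 in bleomycin lungs with LNA-control. It had 12.44, 12.15 and 12.41 in PBS lungs with LNA-miR-199a-5p and 12.33, 12.38 and 12.41 in PBS lungs with LNA-control. The 4 groups overlapped, with an inhibitor change in bleomycin lungs of 0.08 (95% interval -0.16 to 0.31). Tap1, a chain of the transporter that carries peptides to class I molecules, had 8.02, 8.28, 9.04, 8.32 and 8.73 in bleomycin lungs with LNA-miR-199a-5p, against 8.38, 8.39, 7.98, 8.35 and 8.40 with LNA-control. In PBS lungs it had 8.20, 7.94 and 8.03 with LNA-miR-199a-5p and 8.43, 8.22 and 7.68 with LNA-control. Its bleomycin change with LNA-miR-199a-5p was 0.42 ± 0.20 (adjusted p = 0.163). Psmb9, another immunoproteasome subunit, did not pass either (0.23, adjusted p = 0.143, in that comparison).

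As a class, the gamma-type members were called lower for 1 of 7 (14.3%) after bleomycin with LNA-control, where 7.9% of all genes were, with none higher. After bleomycin with LNA-miR-199a-5p 1 of 7 (14.3%) was higher, where 7.31% of all genes were, and none was lower. In bleomycin lungs 2 of 7 (28.6%) were higher with the inhibitor, where 13.4% of all genes were, and the interaction was higher for 1 of 7, where 3.07% were. Their median log2 fold changes were -0.06, 0.23 and 0.18 in those 3 comparisons, -0.10 in PBS lungs and 0.30 for the interaction, against 0.00 to 0.02 over all genes. With 7 genes, 1 call is 14.3% of the class. Several marker lists moved the same way as Gbp2 with the inhibitor in bleomycin lungs. Neutrophil markers were higher for 5 of 7 (mean level 11.41 to 11.67 with LNA-miR-199a-5p, against 10.76 to 10.88 with LNA-control), and natural killer cell markers for 6 of 7 (9.06 to 9.44, against 8.61 to 8.93). Endothelial markers were higher for 6 of 7 and B cell and plasma cell markers for 4 of 6 in that comparison, and their part in the result was not tested.

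Within a group the members tended to be high or low on the same arrays. In bleomycin lungs with LNA-miR-199a-5p, replicate 3 was the highest array for 24 of 30 type I and 7 of 7 gamma-type members, and replicates 1 and 4 were the lowest for 34 of the 37. In bleomycin lungs with LNA-control, replicate 4 was the highest for 19 of 30 type I members and 1 of 7 gamma-type ones. The chemokine genes Cxcl9 and Cxcl10, which interferon gamma induces strongly, showed the same split. Cxcl9 had 6.70, 8.76, 9.52, 6.67 and 6.92 in bleomycin lungs with LNA-miR-199a-5p, with replicates 2 and 3 high, and 8.21, 7.77, 7.59, 8.14 and 7.93 in bleomycin lungs with LNA-control. Its PBS arrays had 7.64, 7.18 and 6.40 with LNA-miR-199a-5p and 6.92, 6.72 and 6.47 with LNA-control. It did not pass in any comparison, with 1.23 ± 0.53 (adjusted p = 0.129) for bleomycin with LNA-control. Cxcl10 had 8.16, 10.12, 10.77, 7.69 and 8.23 in bleomycin lungs with LNA-miR-199a-5p, again split, and 10.22, 8.64, 9.07, 10.46 and 10.18 with LNA-control. The LNA-control arrays were split too, with arrays 1, 4 and 5 high, of which 1 and 4 are the thymocyte-rich ones. In PBS lungs Cxcl10 had 8.51, 8.44 and 8.00 with LNA-miR-199a-5p and 8.39, 8.64 and 8.85 with LNA-control.

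**Figure D4:**
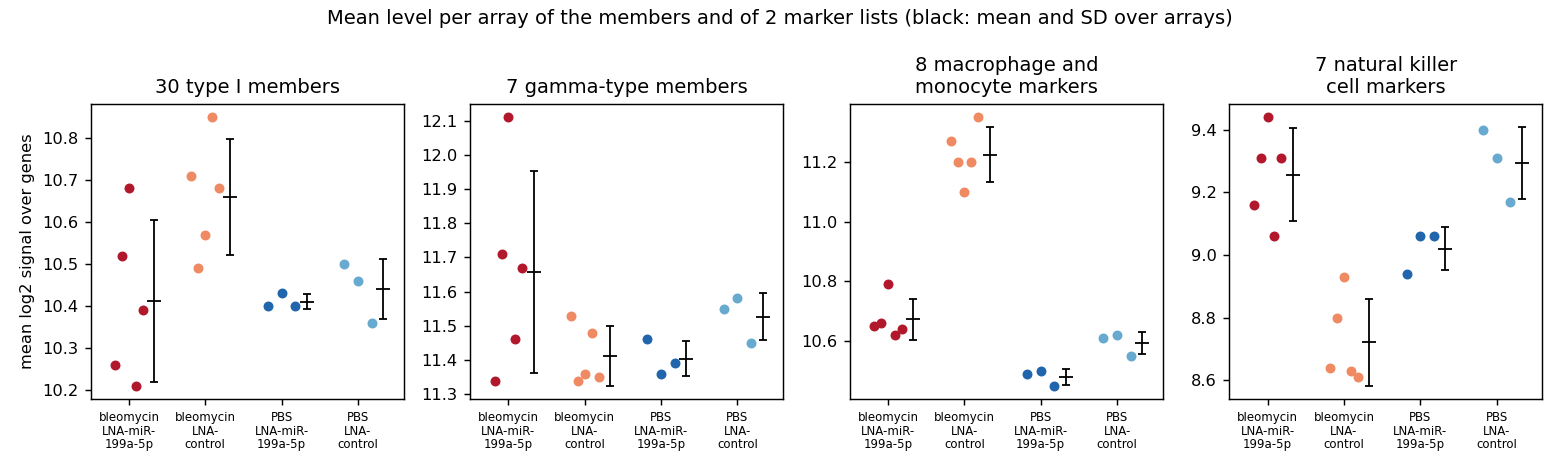
Mean log2 signal over the 30 type I members, the 7 gamma-type members, 8 macrophage and monocyte markers and 7 natural killer cell markers, 1 point per array, with black bars for mean and SD over the arrays of a group (vertical axes do not start at 0). The type I mean is 10.21 to 10.68 in bleomycin lungs with LNA-miR-199a-5p, overlapping 10.49 to 10.85 with LNA-control, whereas the macrophage mean does not overlap.

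The interferons themselves gave low signals. The 10 measured of 12 listed had a mean level of 5.96 to 6.15 on the 16 arrays, and Ifnb1, the first type I interferon made in most cells, passed in no comparison (0.19 for bleomycin with LNA-control, adjusted p = 0.242). Ifng, the gene of interferon gamma, had 6.94, 7.63, 7.95, 6.89 and 7.30 in bleomycin lungs with LNA-miR-199a-5p, against 6.53, 6.67, 6.89, 6.68 and 6.80 with LNA-control. The groups met at 6.89 without crossing, and the rise was 0.63 ± 0.16 (adjusted p = 0.00896). Its highest values (7.63 and 7.95) were on replicates 2 and 3, which were also high for Cxcl9 and Cxcl10. Ifna2 was lower with the inhibitor in bleomycin lungs (-0.22), and Ifnk was lower after bleomycin with either oligonucleotide (-0.32 with LNA-control). Ifng, Ifna2 and Ifnk all had mean signals (7.01, 5.67 and 7.27) below the median gene. With the inhibitor in bleomycin lungs 1 of the 10 was higher and 1 lower, where 13.4% and 11.4% of all genes were.

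Of 6 receptor genes 1 was called, and it was lower. Over all genes 11.4% were lower with the inhibitor in bleomycin lungs and 6.04% after bleomycin with LNA-miR-199a-5p. Ifnar1, a chain of the type I receptor, had 11.35, 11.32, 11.28, 11.33 and 11.27 in bleomycin lungs with LNA-miR-199a-5p, against 11.67, 11.67, 11.69, 11.60 and 11.57 with LNA-control. These narrow groups were well apart, at -0.33 ± 0.05 (adjusted p = 0.00032). It was also lower after bleomycin with LNA-miR-199a-5p (-0.24 ± 0.06, adjusted p = 0.0192). Ifnar2, Ifngr1 and Ifngr2 did not pass in any comparison. Of 8 measured signal transduction genes, 2 were higher with the inhibitor in bleomycin lungs, where 13.4% of all genes were, and none was lower. The 2 were the factors Irf1 (0.27 ± 0.07, adjusted p = 0.0142) and Irf3 (0.27 ± 0.07). After bleomycin with LNA-miR-199a-5p, 3 of the 8 were higher, where 7.31% of all genes were. The 3 were Irf5 (0.59), the receptor kinase gene Tyk2 (0.49) and Irf3 (0.28), and with LNA-control none was called. Irf8, a factor of macrophages and dendritic cells, did not pass.

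Sensors of nucleic acids outside the 37 were called in both directions. Of 13, 4 were higher after bleomycin with LNA-control, where 9.6% of all genes were, and none was lower. Among the 4 were the DNA-sensing adaptor Sting1 (0.71 ± 0.15, adjusted p = 0.00264) and the single-stranded RNA receptor Tlr7 (0.46 ± 0.11, adjusted p = 0.00772). With the inhibitor in bleomycin lungs 5 of 13 were lower, Sting1 (-0.42), Tlr7 (-0.45), Tlr3, Tlr9 and Ddx58 (the RNA sensor RIG-I, -0.33), and the adaptor gene Ticam1 was higher (0.47). Over all genes 11.4% were lower and 13.4% higher in that comparison. Tlr7 also passed the interaction (-0.59 ± 0.16, adjusted p = 0.0334). After bleomycin with LNA-miR-199a-5p, Ikbke, Myd88 and Ticam1 were higher and none was lower, where 7.31% of all genes were higher.

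Among 5 feedback inhibitors, Socs3 changed most. This suppressor of cytokine receptors, which interleukin 6 family cytokines also induce, had 11.68, 11.91, 12.05, 11.72 and 12.01 in bleomycin lungs with LNA-miR-199a-5p and 12.97, 12.84, 12.52, 12.75 and 13.17 with LNA-control. It had 11.64, 11.85 and 12.08 in PBS lungs with LNA-miR-199a-5p and 11.89, 11.95 and 11.83 with LNA-control, so only the bleomycin arrays with LNA-control stood high. Its inhibitor change in bleomycin lungs was -0.98 ± 0.12 (adjusted p = 3.4e-05), and the bleomycin change with LNA-control was 0.96 ± 0.13. Socs1, the inhibitor that interferons induce most directly, did not pass (-0.55 ± 0.20, adjusted p = 0.0508). The phosphatase gene Ptpn6 and the Stat inhibitor gene Pias1 were higher with the inhibitor in bleomycin lungs (0.27 and 0.37).

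A further 25 type I and 25 gamma-induced genes outside the 37 were listed. Of the type I ones, 3 were higher and 3 lower after bleomycin with LNA-control, 5 higher and 2 lower after bleomycin with LNA-miR-199a-5p, and 5 higher and 1 lower with the inhibitor in bleomycin lungs. Over all genes the shares called higher and lower were 9.6% and 7.9%, 7.31% and 6.04%, and 13.4% and 11.4% in the same order, so counts of 2 or 3 in 25 are near the background. Lgals3bp, a secreted glycoprotein, was higher after bleomycin with either oligonucleotide (0.62 ± 0.12 with LNA-miR-199a-5p and 0.77 ± 0.12 with LNA-control). The membrane proteins that block virus entry ran against Isg15 and Mx1. Ifitm1 was higher with the inhibitor in bleomycin lungs by 0.62 ± 0.12 (adjusted p = 0.00129), Ifitm2 by 0.33 ± 0.09 and Ifitm3 by 0.32 ± 0.09. For the gamma-induced list the counts were 2 higher and 2 lower, 3 higher and 1 lower, and 2 higher and 3 lower in the same order. Gbp9, a relative of Gbp2, was lower after bleomycin with LNA-control (-0.56 ± 0.11, adjusted p = 0.00204) and higher with the inhibitor in bleomycin lungs (0.41 ± 0.10, adjusted p = 0.00584). Gbp4, Gbp5, Gbp6, Gbp7 and Gbp8, of the same family, overlapped between the 2 bleomycin groups. The median of the 25 gamma-induced genes with the inhibitor in bleomycin lungs was -0.09, against 0.18 for the 7 gamma-type members. None of these 50 passed for the inhibitor in PBS lungs. The interaction passed for 2 of the 25 type I genes, both higher, and for none of the 25 gamma-induced genes. Over all genes it was higher for 3.07% and lower for 3.94%.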

How the data were processed

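The series matrix holds log2 values deposited by the authors for 16 arrays (62976 spots, 4.61 to 18.3). Sorted values of any 2 arrays differ by at most 0.0974, so the arrays were already scaled to a shared distribution. The background correction and scaling are not given in the sources used here, and limma is named per the submitters' processing notes. No scanner files, slide or scan date were used here. Arrays carry no read depth, and their number limits the precision.

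Probes were named through the platform annotation with symbols updated from RefSeq (31465 probes with 1 symbol, 31511 with none), and each gene kept its probe of highest mean, which left 20863 genes. Groups came from the sample titles. A 4-group limma model (limma 3.58.1, R 4.3.3, statmod 1.5.0) gave moderated tests of 5 contrasts, with Benjamini-Hochberg adjusted p under 0.05 over all genes taken as a call. The contrasts share arrays where they share a group. The script was tested on simulated data. The 37 members and all lists were chosen with earlier results of these data known. Members are all accounted for. Values by array are given for up to 4 type I and 2 gamma-type called members of smallest p per contrast, and for Irf7, Stat2, Isg15, Psmb8, Tap1 and Gbp2. Pathway genes named are mainly the called ones.

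Alternatives were a filter on dim probes, the mean of all probes, median centring, array weights, eBayes with trend and robust settings, symbols not updated, only the groups compared, the replicate number as a block, RNA integrity and other-tissue covariates, and leaving out single arrays, thymus-rich arrays or low-fat PBS arrays. The correlation of same-numbered arrays was over 0.1 in every pair only for the inhibitor contrast in PBS lungs (0.411, 0.108 and 0.497), where the block changed no member's call. Ifna9, Ifnl2, Ly6c2 and Trac were not analysed here, and some items are not reported here.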

Additional observations from a re-analysis of the deposited data

Results flagged for a closer look

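On 4 of 74 pairs of member and bleomycin group, 1 array stood apart from the other 4, where chance alone gives about 5% of pairs. Rsad2 was 8.32 on array 4 of the bleomycin LNA-miR-199a-5p group, where the others had 9.16 to 9.46. In bleomycin with LNA-control, Tap1 was 7.98 on replicate 3 (others 8.35 to 8.40), Parp14 was 11.90 on replicate 2 (others 12.09 to 12.16) and Ifit2 was 8.59 on replicate 4 (others 8.66).

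The bleomycin effect differed between the oligonucleotides by the interaction test for 4 members. The effect with LNA-miR-199a-5p minus that with LNA-control was -0.84 for Oas1a, -1.02 for Isg15, -0.92 for Mx1 and 0.87 for Gbp2.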

How the results depend on the processing

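No member's direction reversed among called values: of 5143 values of single members under an alternative, 4981 kept their side of the threshold, 119 lost a call and 43 gained one. The 4981 include every value called in neither fit, which had no call to lose. These totals therefore do not measure how firm the calls were. Type I calls after bleomycin with LNA-control (6) became 13 with array weights and 3 without the thymus-rich arrays, with tissue covariates or without the low-fat PBS arrays, and 3 to 8 with single arrays left out. After bleomycin with LNA-miR-199a-5p (1) there were 2 with the dim filter, centring or weights, 0 with only the groups compared, RNA integrity, tissue covariates or without low-fat arrays, and 0 to 2 with single arrays left out. For the inhibitor in bleomycin lungs (10) there were 0 with tissue covariates and 10 to 13 with single arrays left out. The interaction (3) gave 6 with weights, 0 without thymus-rich or low-fat arrays or with tissue covariates, and 0 to 4 with single arrays left out. Gamma-type calls after bleomycin with LNA-control (1) became 2 with tissue covariates, 0 without thymus-rich or low-fat arrays, and 0 to 1 with single arrays left out. After bleomycin with LNA-miR-199a-5p (1) there were 0 with centring, only the groups compared, RNA integrity, tissue covariates or without either set of arrays, and 0 to 2 with single arrays left out. For the inhibitor in bleomycin lungs (2) there was 1 with the mean of probes, only the groups compared or RNA integrity, 0 with tissue covariates, and 1 to 2 with single arrays left out. The interaction (1) became 0 without thymus-rich or low-fat arrays and stayed at 1 with single arrays left out. With the replicate block, type I counts were 4, 0, 10, 0 and 1 and gamma-type counts 0, 1, 1, 0 and 1 for bleomycin with LNA-control, bleomycin with LNA-miR-199a-5p, the inhibitor in bleomycin lungs, the inhibitor in PBS lungs and the interaction. In no contrast outside PBS lungs was the correlation of same-numbered arrays over 0.1 in every pair (-0.373 to 0.324). Arrays 1 to 3 of the bleomycin LNA-miR-199a-5p group still each correlated best with their own number in PBS (0.116, 0.324 and 0.043). Whether those arrays are paired is not settled. In that contrast the block ended the call of Oas3 (0.46, adjusted p = 0.101). Over all genes, calls in these 5 comparisons were 3651, 2786, 5188, 10 and 1462, against 2490, 137, 285, 54 and 330 with tissue covariates and 6713, 2835, 5963, 394 and 3862 with weights. The causes were not tested. Low-fat arrays were left out after seeing the data.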
